A study of Mus musculus with 6 samples.

Results

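The genes described here are the expressed autosomal long noncoding RNA genes of ventricular cardiomyocytes (CMs), 136 of the 16448 genes in the deposited table. A gene was taken when its annotated biotype was lincRNA, antisense RNA, processed transcript, sense-intronic or bidirectional-promoter long noncoding RNA, when it lay on an autosome, and when its mean over the 6 samples was at least 30. The members were thus chosen by their 6-sample means, which are given as a description. RNA was sequenced from CMs of 3 Ctrl Cre mice and 3 Cpt1b cKO mice. Ctrl Cre mice were αMHC-Cre pos/+;Cpt1b+/+ and Cpt1b cKO mice were αMHC-Cre pos/+;Cpt1b fl/fl, so that both groups carried the same Cre allele, which is driven by the cardiomyocyte promoter of the alpha myosin heavy chain gene and acts from embryonic stages. The mice were on a C57BL/6 background and 8 to 12 weeks old, and the controls were littermates. Ventricular cells were freed by retrograde enzymatic perfusion after removal of the atria. The comparison asks which long noncoding RNAs differ in level when CMs lack Cpt1b, the muscle carnitine palmitoyltransferase that admits long-chain fatty acids to mitochondria.

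Long noncoding RNAs are transcripts, often spliced and polyadenylated, that do not template a protein. Some act in the nucleus, where they scaffold nuclear bodies or silence neighbouring genes in cis, others bind proteins in the cytoplasm, and others are known mainly as precursors of microRNAs or small nucleolar RNAs. Many lie antisense to a coding gene, share a divergent promoter with it or sit inside its introns, and most are present at lower levels than messenger RNAs.

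Of the 136 members, 55 were lincRNA genes, 33 antisense RNA genes, 25 processed transcripts, 18 sense-intronic genes and 5 bidirectional-promoter genes. By position, 58 overlapped a coding gene on the opposite strand only, 24 on the same strand only, 4 on both, and 50 were intergenic. The table held 1448 autosomal long noncoding RNA genes, 402 of which reached a value of 10 in at least 3 samples and were tested. All 136 members passed that filter, 132 with at least 10 in every sample. In 113 members the mean was at least 30 in each group, in 8 only in Ctrl Cre and in 15 only in Cpt1b cKO, so the 8 and the 15 passed through the group in which they were higher. Just inside the threshold stood Gm26762, with a mean of 30.2, and Gm12002, with 30.5, and just outside it Gm30382, with 29.8, and Plet1os, with 29.7. The label did not hold for every member, since RefSeq lists 7 of them as protein-coding genes under the same symbol (Cct6a, Crybg3, Tmem250-ps, 1810058I24Rik, Tmem134, Zswim6 and Ptpmt1). RefSeq lists 64 members as long noncoding RNA genes and 1 as a transcribed pseudogene, and 64 had no entry under their symbol.

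The targeted gene had values of 1861, 893 and 1443 in Ctrl Cre against 211, 353 and 285 in Cpt1b cKO, a log2 fold change of -2.27 ± 0.27 (SE; limma, adjusted P = 0.00338). The summed values ranged from 13393411 to 31722217 per library. In 4 libraries, the spacing of the low values put the number of assigned reads at about 14900000 to 24500000, and in Ctrl Cre 1 and Cpt1b cKO 2 it could not be resolved. The mitochondrial rRNA mt-Rnr2 took 63.2 to 64.6% of the sum in Ctrl Cre against 61.8, 72.6 and 80.8% in Cpt1b cKO 1, 2 and 3. The library numbered 1 in each group had the expression of a female, with Xist values of 957 and 1080 and a Y-linked sum of 1 and 0, and the other 4 that of males, with Xist at 23 to 78 and Y-linked sums of 1378 to 1688. These libraries also stood apart from numbers 2 and 3 in the levels of many members, so the counts of calls are given with and without them, and so are the values of single members where they turn on these libraries. The 10 cardiomyocyte markers summed to 329807 to 391748 in Ctrl Cre and 247279 to 290632 in Cpt1b cKO, and none of the 10 passed the test. The 8 fibroblast markers summed to 498 to 785 and 1108 to 1338, with 2 of 7 tested higher, and the 3 atrial markers in the table to 146 to 265 and 477 to 720, with 1 of 2 tested higher. That marker was Nppa, with 177, 93 and 144 in Ctrl Cre against 683, 452 and 384 in Cpt1b cKO, which made up most of the atrial sum. Myl4 (16, 48 and 102 against 30, 67 and 83) and Myl7 (2, 5 and 19 against 7, 9 and 10) overlapped. The authors count Nppa among markers of dedifferentiation. Endothelial (1182 to 2544 against 2198 to 2559), smooth muscle and pericyte (1091 to 2303 against 1200 to 1787) and leukocyte markers (128 to 222 against 164 to 185) overlapped between groups, erythroid markers summed to 20 or less. The part of other cells in the results was not tested, and in these bulk samples fewer cells of a type and less RNA per cell cannot be told apart.

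A total of 5 members overlap microRNA hairpins of the RefSeq sequences used here (GRCm38.p6), and Mir133a-1hg overlaps the hairpin gene Mir133a-1 of the deposited table. For the 5, the mature arms usually regarded as the main products are shown because these hosts are members whose known product is a short RNA. Capitals mark the seed, bases 2 to 8, and let-7c-5p of Mir99ahg and let-7d-5p of 6720427I07Rik have the same seed. Dleu2 hosts miR-16-5p on chromosome 14, 2900076A07Rik hosts miR-1839-5p on chromosome 7, and Mir22hg hosts miR-22-3p on chromosome 11.
let-7c-5p: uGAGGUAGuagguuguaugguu
let-7d-5p: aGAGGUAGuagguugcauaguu
miR-99a-5p: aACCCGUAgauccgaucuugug
miR-16-5p: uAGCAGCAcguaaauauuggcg
miR-22-3p: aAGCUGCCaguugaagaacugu
miR-1839-5p: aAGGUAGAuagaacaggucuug

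Promoter windows, 250 bases before to 50 after the annotated start, were matched within 50 bases on the same strand for 43 members. The windows of 4 members with lower values in Cpt1b cKO are shown, because they stand for an antisense, an intergenic, a microRNA host and a divergent start. Capitals mark matches on either strand to 5 short motifs. These were the TATA box, searched as TATAAA, the CCAAT box, the GC box, searched as GGGCGG, the site of GATA factors, searched as AGATAA, and the E-box, searched as CACGTG. Adjoining matches can share letters. The Gm15543 window (chr6:145182025-145182324, plus strand, GRCm38.p6) has 1 match, a CCAAT box that begins 88 bases before the start.
Gm15543: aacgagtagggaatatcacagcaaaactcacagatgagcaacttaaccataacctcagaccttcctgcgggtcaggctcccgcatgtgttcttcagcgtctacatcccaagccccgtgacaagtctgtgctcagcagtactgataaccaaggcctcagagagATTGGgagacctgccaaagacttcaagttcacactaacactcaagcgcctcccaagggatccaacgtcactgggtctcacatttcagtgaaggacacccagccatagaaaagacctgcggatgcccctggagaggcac
The window of AC153945.1 (chr10:56982182-56982481, minus strand), which RefSeq names Gm36827, has a TATA box match beginning 122 bases before and a GATA match beginning 4 bases before the start, and 37.3% of its bases are G or C.
AC153945.1: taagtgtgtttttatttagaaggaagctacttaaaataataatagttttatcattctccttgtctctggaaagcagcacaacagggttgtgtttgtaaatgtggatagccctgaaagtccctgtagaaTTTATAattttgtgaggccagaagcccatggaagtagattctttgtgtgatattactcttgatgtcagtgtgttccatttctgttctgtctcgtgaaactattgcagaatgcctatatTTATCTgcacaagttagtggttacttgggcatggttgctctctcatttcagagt
The Dleu2 window (chr14:61682324-61682623, minus strand) is 69.0% G and C and has 6 GC box matches, 1 E-box and a TATA box match beginning 15 bases after the start.
Dleu2: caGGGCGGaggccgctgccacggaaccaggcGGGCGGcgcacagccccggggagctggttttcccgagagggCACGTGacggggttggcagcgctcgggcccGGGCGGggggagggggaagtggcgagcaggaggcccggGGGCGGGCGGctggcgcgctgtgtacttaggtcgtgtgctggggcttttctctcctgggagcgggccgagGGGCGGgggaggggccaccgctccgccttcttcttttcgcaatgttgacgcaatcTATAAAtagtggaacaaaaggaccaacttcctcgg
The window of 4930429F24Rik (chr9:79793391-79793690, plus strand), whose start lies 134 bases from that of Tmem30a on the other strand, has none of the 5 motifs.
4930429F24Rik: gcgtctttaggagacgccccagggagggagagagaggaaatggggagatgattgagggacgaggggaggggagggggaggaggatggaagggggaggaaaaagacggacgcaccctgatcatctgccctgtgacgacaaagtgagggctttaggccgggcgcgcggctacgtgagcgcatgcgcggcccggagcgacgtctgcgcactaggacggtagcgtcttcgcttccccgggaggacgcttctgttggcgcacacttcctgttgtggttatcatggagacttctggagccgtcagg
Over the 43 member windows, 18.6% held TATAAA, 32.6% CCAAT, 41.9% GGGCGG, 6.98% AGATAA and 11.6% CACGTG. Over all 32817 windows of this length, the shares were 13.6, 37.4, 35.6, 11.2 and 7.15%.

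Malat1, a nuclear RNA of the splicing speckles, was the most abundant member, followed by Gm26917 and by Neat1, the scaffold of paraspeckles. Malat1 alone made up 55.8 to 61.1% of the summed value of the members in each library. Compared per kilobase of exon, which was known for 135 members, the mean level was 8028 for Malat1, 5141 for Gm26917 and 2194 for Gm15543. The next were 1700020I14Rik, with 368 per kilobase, and Mhrt, with 344, against a median of 19.7. Thus, 3 members stood well above the others on this scale, and 104 of the 136 had a mean between 30 and 100 before division by length.

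**Figure D1:**
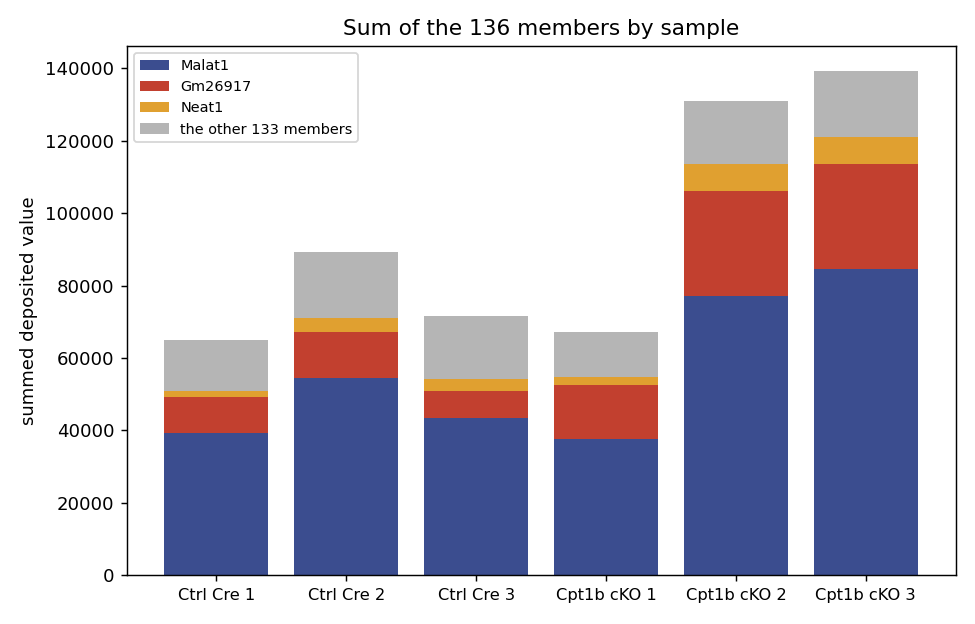
Summed deposited value of the 136 members in each sample (y axis; bars start at 0), divided into Malat1, Gm26917, Neat1 and the other 133 members. The Cpt1b cKO 2 and 3 bars, at 130880 and 139262, stand above the other 4, which run from 65051 to 89317.

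The members summed to 1.83, 2.57 and 2.08% of the value outside mitochondrial and rRNA genes in Ctrl Cre and to 2.14, 4.07 and 4.20% in Cpt1b cKO. The sum was thus high in Cpt1b cKO 2 and 3, whereas Cpt1b cKO 1 lay within the control range. The sum of the 133 members other than Malat1, Gm26917 and Neat1 was 14222, 18238 and 17261 in Ctrl Cre against 12485, 17177 and 18345 in Cpt1b cKO, and here the groups overlapped.

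Between the groups, the median change of the long noncoding RNAs was close to 0, and the members that passed the test, Gm15543, AC153945.1 and AV026068, were lower in Cpt1b cKO. By limma with Benjamini-Hochberg adjustment over 11364 genes, no member was higher and 3 were lower, where 0.66% of all genes tested were higher and 0.906% lower (1.57% in either direction). These counts belong to the main fit, with all 6 libraries, the deposited scaling, the filter on low values and genotype as the only term. Scaling to the total without mitochondrial and rRNA genes gave 1 higher and 1 lower member. Sex as a covariate gave 4 and 9, and 1 prior variance gave 0 and 0. Over all genes 0.907 and 0.658%, 2.14 and 2.91%, and 0.202 and 0.158% were called higher and lower in these fits. At an unadjusted P under 0.05, 7 members were higher and 16 lower, 5.15 and 11.8% of the members against 6.66 and 7.22% of all genes (13.9% in either direction). Requiring a mean of at least 30 in each group left 113 members, of which 4 were higher and 13 lower. The others had passed the rule only through the group in which they were higher. The split of 7 and 16 also depended on the fit. Scaling to the total without mitochondrial and rRNA genes gave 14 higher and 12 lower members, against 10.8 and 4.45% of all genes. Sex as a covariate gave 17 and 20, against 9.57 and 11.3% of all genes. The groups did not overlap for 6 members that were higher and 20 that were lower, which is 4.41 and 14.7% of the members against 9.13 and 9.6% of all genes (18.7% in either direction). Of the 20, Dleu2, A430046D13Rik, 2310040G07Rik and Snhg1 reached a mean of 30 only in Ctrl Cre. Of the 6, Gm33609 did so only in Cpt1b cKO. Their part in these shares is not independent of how they were chosen. Among the 7746 autosomal coding genes with a mean of at least 30, 0.839% were higher and 1.16% lower at an adjusted P under 0.05 (2.0% in either direction), 6.62 and 8.53% at an unadjusted P under 0.05 (15.2%), and 9.14 and 11.2% without overlap of the groups (20.3%). The median log2 fold change was 0.09, with 78 members positive and 58 negative, against -0.0013 over all genes tested and -0.03 over these coding genes. The member median had no stable sign, from -0.08 without Cpt1b cKO 3 to 0.30 without Cpt1b cKO 1. The median SE was 0.33 for the members, 0.26 for all genes and 0.22 for the coding genes. The count of higher members depended on Cpt1b cKO 1, since without that library 9 were higher at an adjusted P under 0.05 and 39 at an unadjusted P under 0.05, and without both libraries numbered 1, an alternative chosen after seeing the data, the numbers were 7 and 27. Over all genes the higher shares in these fits were 1.23 and 8.95% without Cpt1b cKO 1, and 1.10 and 8.25% without both. Among both the 9 and the 7, Gm16958, Gm33609 and Gm15342 reached a mean of 30 only in Cpt1b cKO. Their tests are not independent of how they were chosen, and such members were not taken out of the 39 and 27. The count of 3 lower members was 0 without Ctrl Cre 3 or without Cpt1b cKO 2, and 1 without Ctrl Cre 2 or without Cpt1b cKO 3. Over all genes the lower share fell from 0.906% to 0.296% without Ctrl Cre 3 and 0.209% without Cpt1b cKO 2. It was 0.334% without Ctrl Cre 2 and 0.860% without Cpt1b cKO 3. The 7 higher members at an unadjusted P under 0.05 were 3 without Ctrl Cre 3, 4 without Cpt1b cKO 2 and 3 without Cpt1b cKO 3. Over all genes the higher share in these fits was 5.82, 3.94 and 5.39%, against 6.66% with all libraries.

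**Figure D2:**
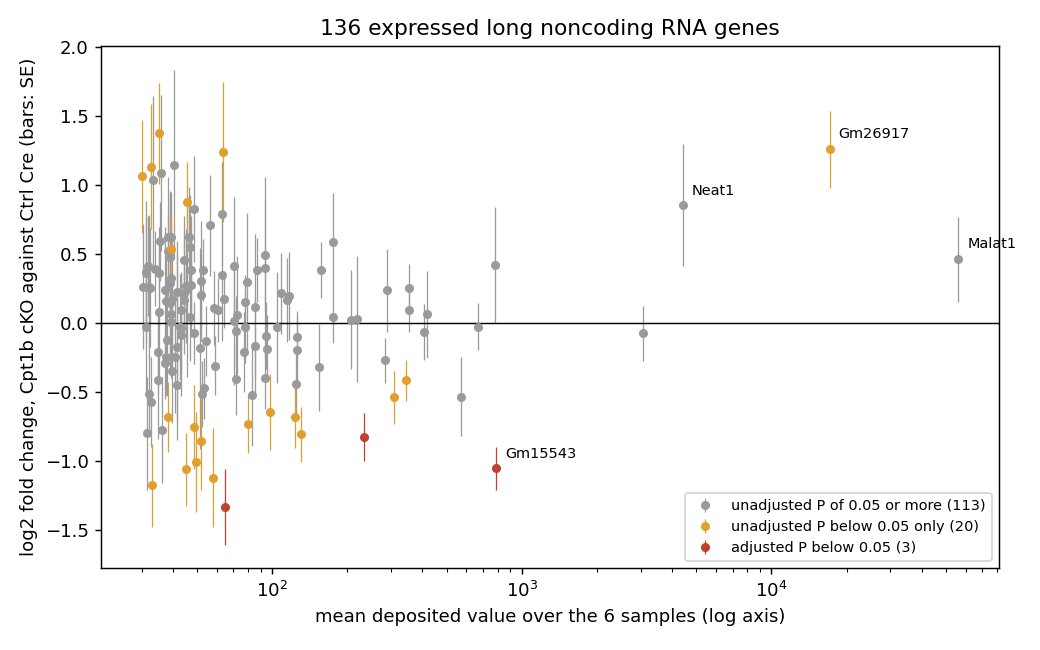
Log2 fold change (y axis; bars, SE) against the mean deposited value over the 6 samples (x axis, log scale) for the 136 members, coloured by test result. The 3 members with an adjusted P under 0.05 lie below 0, and Gm26917, at 1.26, is the highest among the abundant members.

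Gm15543 was the member with the smallest P value and the most abundant of the lower ones. It is an antisense RNA gene at chr6:145182275-145187630 (plus strand, GRCm38), within the span of Casc1 on the opposite strand, and no function is stated for it in the sources used here. Its values were 1099, 944 and 1161 in Ctrl Cre against 518, 439 and 591 in Cpt1b cKO. Every Cpt1b cKO library lay below every control, and the log2 fold change was -1.05 ± 0.16 (SE; limma, adjusted P = 0.0107). The difference was -1.08 between the female libraries and -1.04 over the male ones (adjusted P = 0.0167). The adjusted P was 0.0638 without Ctrl Cre 3 and 0.0720 without Cpt1b cKO 2. Casc1 itself had 8, 5 and 6 in Ctrl Cre against 3, 4 and 13 in Cpt1b cKO and was below the filter. The sources used here do not give whether the counting used the strand, and without it reads of a gene and its antisense partner cannot be told apart.

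AC153945.1 is an intergenic lincRNA gene at chr10:56970329-56982232 (minus strand), and the nearest coding start, that of the heat shock factor gene Hsf2, lies 504153 bases away. Its values were 61, 116 and 104 in Ctrl Cre against 34, 33 and 39 in Cpt1b cKO, with no overlap. The log2 fold change was -1.33 ± 0.27 (SE; limma, adjusted P = 0.0414). The difference was -0.82 between the female libraries and -1.59 over the male ones (adjusted P = 0.0128). The adjusted P was 0.177 without Ctrl Cre 2, 0.170 without Ctrl Cre 3, 0.189 without Cpt1b cKO 2 and 0.0713 without Cpt1b cKO 3. Hsf2 differed by -0.23 ± 0.19 (SE; adjusted P = 0.642).

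AV026068 is a processed transcript at chr8:57281117-57324233 (minus strand) that overlaps Hand2, a transcription factor gene of heart development, on the opposite strand, with starts 3250 bases apart. It had 347, 247 and 308 in Ctrl Cre against 170, 173 and 160 in Cpt1b cKO. The Cpt1b cKO libraries lay close together and all below the controls, and the log2 fold change was -0.83 ± 0.17 (SE; limma, adjusted P = 0.0455). The difference was -1.03 between the female libraries and -0.73 over the male ones (adjusted P = 0.0732). The adjusted P was 0.148, 0.0626 and 0.170 without Ctrl Cre 1, 2 and 3, and 0.178 and 0.112 without Cpt1b cKO 2 and 3. Hand2 had 222, 165 and 225 in Ctrl Cre against 128, 139 and 131 in Cpt1b cKO, also without overlap, with a log2 fold change of -0.60 ± 0.18 (SE; adjusted P = 0.159).

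The next members with lower values did not pass the adjusted test when genotype was the only term. Dleu2, the host of miR-16-1 (chr14:61602839-61682373, minus strand), had 52, 76 and 57 in Ctrl Cre against 31, 33 and 23 in Cpt1b cKO, and overlaps 6 other genes of the table, 2 of them coding (Trim13 and Kcnrg). Its groups did not overlap, and the log2 fold change was -1.06 ± 0.26 (SE; limma, adjusted P = 0.0892), with -0.73 between the female and -1.23 over the male libraries. With sex as a covariate the adjusted P was 0.0435. Dleu2 is 1 of the 8 members that reached a mean of 30 only in Ctrl Cre, so its test is not independent of how it was chosen. The lincRNA gene 4930429F24Rik (chr9:79793641-79803235, plus strand) had 175, 197 and 131 in Ctrl Cre against 98, 101 and 84 in Cpt1b cKO. Its log2 fold change was -0.81 ± 0.20 (SE; adjusted P = 0.0911, or 0.0341 with sex as a covariate), again without overlap. Its divergent partner Tmem30a, which encodes a flippase subunit, differed by -0.24 ± 0.17 (SE; adjusted P = 0.576).

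**Figure D3:**
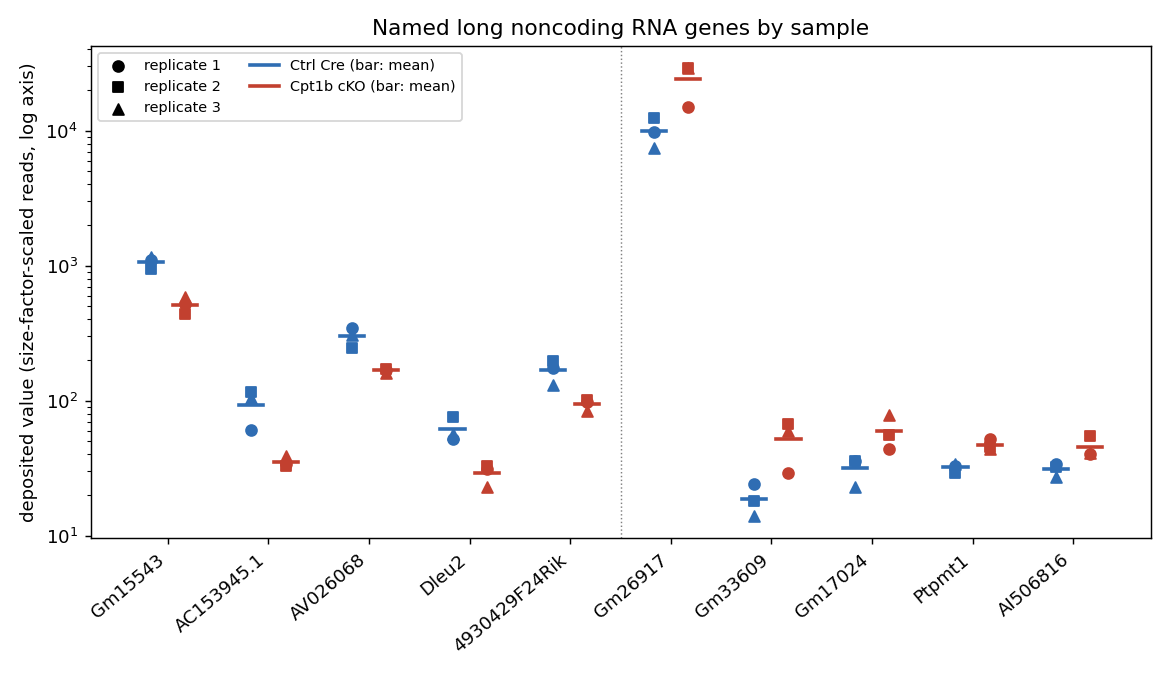
Deposited values (y axis, log scale) of 10 named members in each library, Ctrl Cre in blue and Cpt1b cKO in red, with marker shapes for replicate numbers and bars for group means. The 5 members left of the dotted line are lower and the 5 right of it higher in every Cpt1b cKO library than in every control, a condition by which they were picked. Only the first 3 have an adjusted P under 0.05.

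Among members with higher values, none passed the test in the main fit. With sex as a covariate 4 did, and 9 did without Cpt1b cKO 1, Gm26917 among them in both fits. Gm26917 (chr17:39843013-39846341, plus strand) is a lincRNA gene that ends 12 bases before Rn18s-rs5, a pseudogene of a ribosomal RNA in RefSeq. It had 9812, 12511 and 7429 in Ctrl Cre against 14911, 29013 and 29007 in Cpt1b cKO. Every Cpt1b cKO library lay above every control, with numbers 2 and 3 highest, and the log2 fold change was 1.26 ± 0.28 (SE; limma, adjusted P = 0.0589). The difference was 0.60 between the female libraries and 1.59 over the male ones (adjusted P = 0.00571), and without Cpt1b cKO 1 the log2 fold change was 1.58 (adjusted P = 0.00365). With all 6 libraries the adjusted P was 0.00933 with sex as a covariate, 0.0358 after scaling to the total without mitochondrial and rRNA genes, 0.0444 without the filter on low values and 0.187 with 1 prior variance. Without Ctrl Cre 1, 2 or 3 it was 0.150, 0.0920 or 0.219, and without Cpt1b cKO 2 or 3 it was 0.295 or 0.161, so that 6 of 16 alternatives gave a call. Gm26917 made up 10.4 to 15.1% of the member sum in Ctrl Cre and 20.8 to 22.2% in Cpt1b cKO, and the libraries with its highest values were those with the highest shares of mt-Rnr2. The part of rRNA content in this difference was not tested.

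Gm33609 (chr5:97143026-97149848, plus strand), an intergenic lincRNA gene, had 24, 18 and 14 in Ctrl Cre against 29, 67 and 60 in Cpt1b cKO. Its log2 fold change was 1.38 ± 0.37 (SE; limma, adjusted P = 0.115) with all libraries and 1.74 (adjusted P = 0.0255) without Cpt1b cKO 1. It was 1.15 (adjusted P = 0.460) without Cpt1b cKO 2, and 2 of 16 alternatives gave a call. Gm33609 is 1 of the 15 members that reached a mean of 30 only in Cpt1b cKO, the group in which it is high, so these tests are not independent of how it was chosen. Gm17024, a sense-intronic gene of Ifrd1, had 36, 36 and 23 against 44, 56 and 78 (log2 fold change 0.87, adjusted P = 0.210; 0.28 between the female and 1.17 over the male libraries), and Ifrd1 differed by 0.36 ± 0.25 (SE). Ptpmt1, which RefSeq lists as the coding gene of a mitochondrial phosphatase, had 33, 29 and 34 against 52, 45 and 44 (0.54, adjusted P = 0.351), and AI506816, a processed transcript, had 34, 32 and 27 against 40, 55 and 41 (0.53, adjusted P = 0.403). The groups of all 5 did not overlap, which was a condition for naming them. The number 1 library was the lowest Cpt1b cKO library for Gm26917, Gm33609, Gm17024 and AI506816.

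The abundant and conserved regulatory RNAs gave no call in the main fit, whereas Neat1 passed the test in 4 of 16 alternatives. These were sex as a covariate, the replicate number as a block, the fit without Cpt1b cKO 1 and the male libraries alone. Of 17 listed conserved regulatory RNAs, 7 were members. In the main fit none passed the adjusted test in either direction, with a median log2 fold change of 0.09. Malat1 had 39359, 54546 and 43420 in Ctrl Cre against 37498, 77072 and 84464 in Cpt1b cKO. Cpt1b cKO 1 lay below all controls and the other 2 above them, and the log2 fold change was 0.46 ± 0.31 (SE; limma, adjusted P = 0.549). It was 0.83 (adjusted P = 0.0613) without Cpt1b cKO 1, 0.31 without Cpt1b cKO 2 and 0.25 without Cpt1b cKO 3. Neat1 had 1658, 4022 and 3392 against 2355, 7618 and 7446, with the same 2 libraries highest. Its log2 fold change was 0.85 ± 0.44 (SE; adjusted P = 0.424) with all libraries, and with sex as a covariate the same change had an adjusted P of 0.00415. It was 1.41 (adjusted P = 0.0336) without Cpt1b cKO 1, and 1.03 (adjusted P = 0.00464) over the male libraries, beside a difference of 0.51 between the female ones. It was 0.47 (adjusted P = 0.763) without Ctrl Cre 1, 0.57 (adjusted P = 0.797) without Cpt1b cKO 2 and 0.58 (adjusted P = 0.717) without Cpt1b cKO 3. 2900097C17Rik, the mouse Norad gene, whose RNA binds Pumilio proteins, had 368, 385 and 427 against 301, 264 and 320. Its groups did not overlap, and the log2 fold change was -0.42 ± 0.15 (SE; unadjusted P = 0.0194, adjusted P = 0.243). Tug1 differed by 0.05 ± 0.19 (SE), and Lncpint, a transcript induced by p53, by 0.06 ± 0.43 (SE), from -0.28 without Cpt1b cKO 3 to 0.57 without Cpt1b cKO 1.

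Of 11 listed imprinted noncoding RNAs, 4 were members, with a median of 0.05 and no adjusted call. Kcnq1ot1, which silences genes of its imprinted domain in cis, had 354, 913 and 696 in Ctrl Cre against 408, 1207 and 1096 in Cpt1b cKO (log2 fold change 0.42 ± 0.42, SE; limma, adjusted P = 0.706). Leaving out 1 library moved this value from 0.03, without Ctrl Cre 1, to 0.92, without Cpt1b cKO 1 (adjusted P = 0.989 and 0.135). Airn, the antisense RNA that silences Igf2r on the paternal allele, differed by 0.09 ± 0.28 (SE), and by -0.08 to 0.29 on leaving out 1 library. Peg13, which lies in an intron of Trappc9, had 149, 114 and 93 against 90, 90 and 50. The groups came close without overlapping, and the log2 fold change was -0.65 ± 0.27 (SE; unadjusted P = 0.0396, adjusted P = 0.329). On leaving out 1 library it ran from -0.37 without Cpt1b cKO 3 to -0.81 without Ctrl Cre 3 (adjusted P = 0.617 and 0.365). Snhg14 differed by 0.02 ± 0.46 (SE), from -0.51 without Ctrl Cre 1 to 0.42 without Cpt1b cKO 1. Of the tested genes of this list that were no members, Rian had an unadjusted P under 0.05 and was higher.

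Of 27 listed microRNA hosts, 5 were members and none passed the adjusted test in the main fit. Dleu2 passed it with sex as a covariate and with the replicate number as a block. Dleu2 had become a member only through its mean in Ctrl Cre, the group in which it was higher. Its tests are therefore not independent of how it was chosen. Apart from Dleu2, the members had values that overlapped between groups. Mir99ahg, which carries the let-7c and miR-99a hairpins shown above, had 225, 391 and 186 in Ctrl Cre against 204, 338 and 390 in Cpt1b cKO (0.24 ± 0.30, SE). Mir22hg had 91, 148 and 82 against 85, 105 and 176 (0.17 ± 0.30, SE). Mir133a-1hg, the host of the muscle microRNA miR-133a, had 31, 51 and 35 against 25, 67 and 74 (0.38 ± 0.40, SE). A330023F24Rik differed by -0.03 ± 0.40 (SE). On leaving out 1 library the log2 fold change ran from 0.01 to 0.55 for Mir99ahg, from -0.13 to 0.42 for Mir22hg, from 0.10 to 0.87 for Mir133a-1hg and from -0.35 to 0.39 for A330023F24Rik, without a call. 2900076A07Rik, the host of miR-1839, is on none of the lists and was named after its values were seen, with 145, 185 and 126 against 93, 74 and 118 and a log2 fold change of -0.68 ± 0.23 (SE; limma, unadjusted P = 0.0130, adjusted P = 0.205).

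Of 25 listed noncoding RNAs studied in the heart, 5 were members, with no adjusted or unadjusted call in the main fit and a median of 0.42. Neat1, given above, passed in 4 of 16 alternatives. Mhrt, transcribed antisense to the myosin heavy chain gene Myh7, had 350, 457 and 370 in Ctrl Cre against 222, 506 and 602 in Cpt1b cKO. Cpt1b cKO 1 was below and the other 2 above all controls, and the log2 fold change was 0.06 ± 0.31 (SE; adjusted P = 0.953), and on leaving out 1 library it ran from -0.22 without Cpt1b cKO 3 to 0.50 without Cpt1b cKO 1 (adjusted P = 0.841 and 0.147). Myh7 had 3195, 612 and 1818 against 2139, 3175 and 3626 (0.93 ± 0.47, SE; adjusted P = 0.418). C130080G10Rik, among the 8 most abundant members, starts 787 bases from Actc1, the cardiac actin gene, on the other strand. It differed by -0.53 ± 0.29 (SE; adjusted P = 0.440), from -0.24 without Cpt1b cKO 1 to -0.85 without Cpt1b cKO 3. Its adjusted P was 0.0458 with the replicate number as a block and 0.0964 with sex as a covariate, and 1 of 16 alternatives gave a call. Actc1 differed by -0.31 ± 0.17 (SE; adjusted P = 0.440). The other abundant members differed less, 1700020I14Rik by -0.07 ± 0.20 (SE) and Cct6a by -0.02 ± 0.17 (SE). For 1700020I14Rik the value ran from -0.30 without Ctrl Cre 1 to 0.08 without Ctrl Cre 3. For Cct6a it ran from -0.14 without Cpt1b cKO 1 to 0.10 without Cpt1b cKO 3.

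Of 23 listed small nucleolar RNA hosts, 3 were members, with a median of 0.02 and no adjusted call. Gas5 had 78, 67 and 75 in Ctrl Cre against 85, 84 and 76 in Cpt1b cKO (0.15 ± 0.19, SE), and Snhg1 had 48, 31 and 35 against 29, 23 and 26 (-0.51 ± 0.28, SE; limma, adjusted P = 0.449), with a mean of at least 30 only in Ctrl Cre. Against these 5 lists stands the background of 1.57% of all genes with an adjusted P under 0.05.

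Sense-intronic members, which lie within introns of coding genes on the same strand, varied most between libraries among the member classes. The median over the 18 of them of log2(value + 1), relative to the control mean of each gene, was -0.45, 0.35 and -0.05 in Ctrl Cre against -0.81, 0.80 and 0.75 in Cpt1b cKO. In Cpt1b cKO 2 and 3, 12 and 15 of the 18 were above all controls, whereas in Cpt1b cKO 1, 1 was above and 13 were below. Over all genes tested, 28.7 and 30.8% were above all controls in Cpt1b cKO 2 and 3, and in Cpt1b cKO 1 26.5% were above and 25.4% below. The female control library was likewise the lowest of the controls. Some of these genes share a host, 4 of them lying in Magi3, and they are not independent of each other. The medians of the 13 coding hosts on the same strand were 0.05, -0.03 and -0.01 in Ctrl Cre against -0.16, -0.16 and -0.31 in Cpt1b cKO, so that the hosts did not follow the same order. The pattern was not particular to these members, since the 362 tested autosomal genes of the biotype TEC, gene models that await experimental evidence, had medians of -0.48, 0.41 and 0.10 in Ctrl Cre against -0.50, 0.82 and 0.85 in Cpt1b cKO. Reads of an intronic gene and of the unspliced RNA of its host cannot be told apart in these values. By limma none of the 18 had an adjusted P under 0.05, 1 (Gm17024) was higher and 1 (Peg13) lower at an unadjusted P under 0.05, and the median log2 fold change was 0.24 with a median SE of 0.44.

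The larger of the other classes varied less. Antisense members had medians of -0.29, 0.21 and 0.10 in Ctrl Cre against -0.43, 0.31 and 0.38 in Cpt1b cKO. Processed transcripts had -0.17, 0.23 and -0.01 against -0.28, 0.11 and 0.40, and lincRNA genes -0.05, 0.16 and -0.05 against -0.34, 0.00 and 0.04. In each of these 3 classes the Cpt1b cKO 1 library had the lowest median of the 6. The 5 bidirectional-promoter members differed, with 0.12, 0.11 and -0.25 against 0.04, 0.37 and -0.45, where Cpt1b cKO 3 was lowest. Among coding genes with a mean of at least 30 the medians lay between -0.06 and 0.05. Of the 55 lincRNA genes, 9 were lower and 3 higher at an unadjusted P under 0.05, which is 16.4 and 5.45% against 7.22 and 6.66% of all genes tested. Of these, Gm33609 and Gm26762 reached a mean of 30 only in Cpt1b cKO and A430046D13Rik only in Ctrl Cre. Their tests are not independent of how they were chosen.

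**Figure D4:**
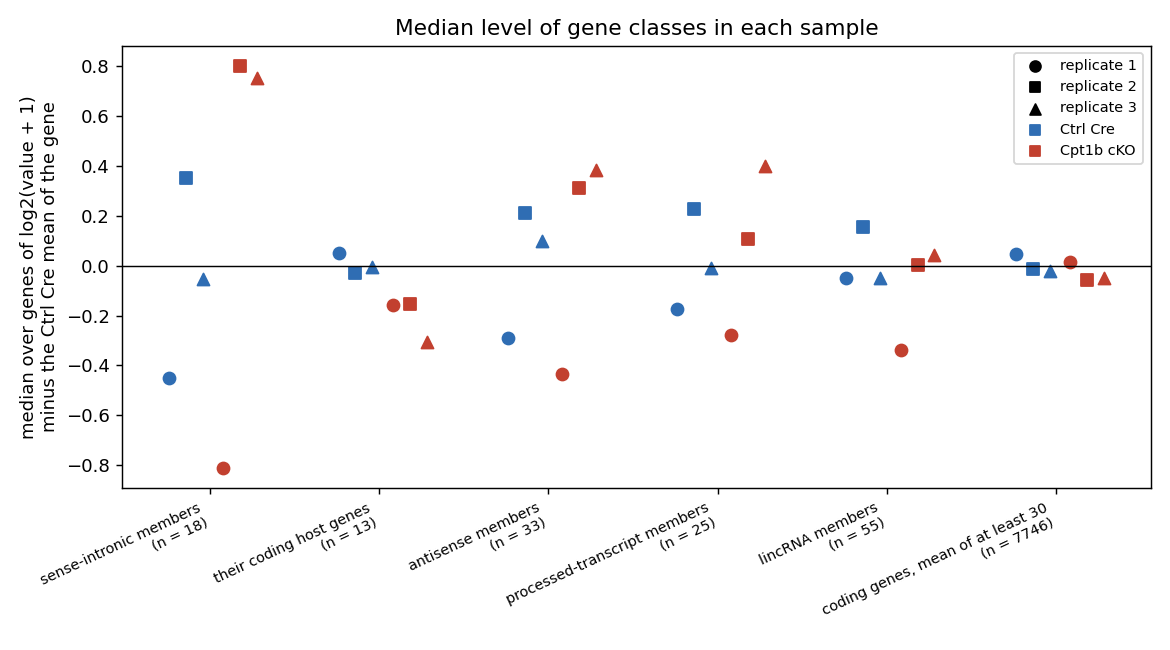
Median over the genes of each class of log2(value + 1) minus the control mean of the gene (y axis) in each library, Ctrl Cre in blue and Cpt1b cKO in red, with marker shapes for replicate numbers. Sense-intronic members spread from -0.81 in Cpt1b cKO 1 to 0.80 in Cpt1b cKO 2, whereas their coding hosts stay between -0.31 and 0.05.

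A coding neighbour, the overlapping gene or that with the nearest start, was tested for 120 members and comprised 109 genes. The change of member and neighbour had the same sign in 59 of the 120, with Pearson's r = 0.23 and Spearman's rho = 0.19 across genes, which share their libraries and are not independent replicates. The correlation was 0.22 over 53 antisense pairs, 0.45 over 23 sense pairs and 0.27 over 41 intergenic pairs. It was 0.26 over 24 members with a coding start within 1000 bases on the other strand. In these 24, Brip1os was set against Ints2 and Gm29170 against Uchl5, which are not the coding genes with that start. In the sense pairs, 7 of the 23 had the same sign, with a median of 0.24 for the members and -0.15 for their hosts. These 23 pairs comprised 18 neighbours, so hosts such as Magi3 were counted more than once. In 1 pair, Crybg3 (-0.54) was set against a coding gene of the same symbol (-0.55) that starts 93 bases away. In the antisense pairs 28 of the 53 had the same sign. In 3 pairs the neighbour had an adjusted P under 0.05 by limma and the member did not. Gdap10 (log2 fold change -0.32) overlaps Nampt (adjusted P = 0.0310), the enzyme of NAD salvage, which was lower, on the same strand. Gm43581 (0.12) lies in Slc16a1 (-0.70, adjusted P = 0.0461), a monocarboxylate transporter, and 4632415L05Rik (-0.45) is nearest to Cp (-1.33, adjusted P = 0.0101), which encodes ceruloplasmin. These pairs were named after their values were seen. Of the members with a divergent start, Gm17281, also named after its values were seen, lies 41 bases from Pacsin3 and had a log2 fold change of -1.12 ± 0.36 (SE; adjusted P = 0.187), or -1.48 (adjusted P = 0.0376) without Cpt1b cKO 1, beside -0.27 ± 0.17 (SE; adjusted P = 0.530) for Pacsin3.

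**Figure D5:**
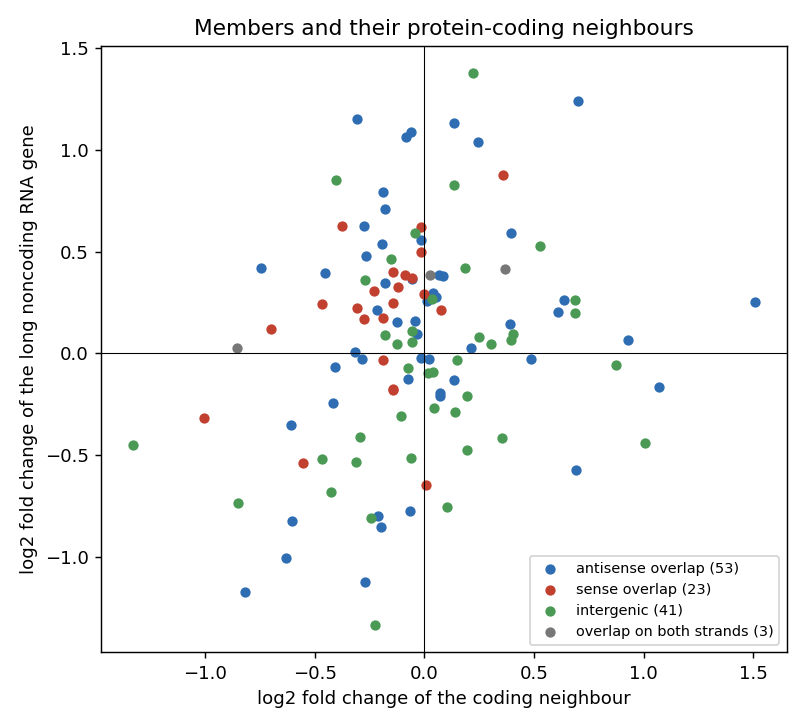
Log2 fold change of each member (y axis) against that of its coding neighbour (x axis) for 120 pairs, coloured by the position of the member. The points scatter over all quadrants, with 59 of the 120 pairs on the same side of 0 in both.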

How the data were processed

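RNA-seq libraries of total RNA (stranded kit, single-end reads) from isolated ventricular CMs of 3 Ctrl Cre and 3 Cpt1b cKO mice were analysed. The authors trimmed reads with Trimmomatic 0.36, aligned them to GRCm38.p5 with STAR 2.5.4b and counted reads overlapping exons with featureCounts 1.6.0, excluding reads on several genes. Strand use and annotation release are not given in the sources used here. The deposited values, treated as a score, are such counts divided by DESeq2 1.14.1 size factors and rounded by the authors to whole numbers, so count models were not used here. The authors' own fold changes and P values in the table were not used. Values were tested as log2(value + 1) with limma 3.58.1 (R 4.3.3; variance trend) for genes with at least 10 in at least 3 samples, with Benjamini-Hochberg adjustment over all tested genes; fold changes are on this scale and understate those of low genes. Where libraries of a group are not separate animals, P values measure only the spread between libraries. Sex was read from Xist and Y-linked genes. The number of mapped reads behind a value limits its precision, most for members near 30. Positions and exon lengths came from GENCODE (GRCm38), sequences from RefSeq (GRCm38.p6). Named were the 8 most abundant members, non-overlapping members with an adjusted P under 0.05 filled to 5 per direction by the smallest P, list members, and coding neighbours. Members and lists were chosen with earlier results of these data known. The test was tried on simulated data. Alternatives changed scaling, filter, pseudocount (0.5, 5), prior variance, block, sex, samples and membership.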

Additional observations from a re-analysis of the deposited data

Results flagged for a closer look

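Some members and classes moved in opposite directions in the libraries of the 2 sexes, with every male Cpt1b cKO library beyond both male controls and the female pair, 1 library per group, differing the other way; this difference was not tested. On the log2(value + 1) scale the female and male differences were -0.0699 and 0.73 for Malat1, -0.65 and 0.42 for Mhrt, -0.30 and 0.72 for Mir133a-1hg, and 0.21 and -0.22 for 1700020I14Rik. The class medians behaved likewise, with -0.36 and 0.63 for the sense-intronic members, -0.14 and 0.19 for the antisense members and -0.19 and 0.19 for all 136 members. Sex coincided with the replicate number, so that sex and any other property of the libraries numbered 1 cannot be told apart.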

How the results depend on the processing

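The members higher and lower at an adjusted P under 0.05 (limma; 0 and 3 with all libraries) numbered 1 and 1 after scaling to the total without mitochondrial and rRNA genes, 3 and 9 with the replicate block, and 4 and 9 with sex as a covariate. Over all genes 0.907 and 0.658%, 2.19 and 3.12%, and 2.14 and 2.91% were called higher and lower in these fits. Without a filter 1 was higher, and with 1 prior variance 0 were lower. Among the 48 members without an overlap 1 was lower. With replicates 2 and 3 of both groups only (added after seeing the data) 7 were higher. Of these 7, Gm16958, Gm33609 and Gm15342 reached a mean of 30 only in Cpt1b cKO, so their tests are not independent of how they were chosen. They were also among those called higher without Cpt1b cKO 1. Leaving out 1 library gave 0 to 9 higher and 0 to 4 lower, against 0.154 to 1.23% and 0.209 to 1.51% of all genes. Over all genes 0.541% were higher without the filter and 1.10% with replicates 2 and 3 only, and 0.158% were lower with 1 prior variance. At an unadjusted P under 0.05, the 7 higher members became 14 with that scaling, 17 with the replicate block, 17 with sex and 27 with replicates 2 and 3 only. They became 3 to 39 on leaving out 1 library. Of the 113 members with a mean of at least 30 in each group, 4 were higher. Of the 32 with a mean of at least 100, 1 was higher, and of the 48 without overlaps, 2 were. Over all genes 6.66% were higher at this threshold with the main settings and 10.8% with that scaling. The share was 9.44% with the block, 9.57% with sex and 8.25% with replicates 2 and 3 only. On leaving out 1 library it ran from 3.94 to 8.95%. The 16 lower of 136 members became 13 of 113 with a mean of at least 30 in each group, 6 of 32 with a mean of at least 100 and 8 of 48 without overlaps. These subsets are smaller, and the calls are those of the main fit, in which 7.22% of all genes were lower. Scaling moved the median of all genes to 0.11. The median change of the members, 0.09, had no stable sign: it was -0.06 without Ctrl Cre 1, -0.04 without Cpt1b cKO 2, -0.08 without Cpt1b cKO 3 and 0.30 without Cpt1b cKO 1. Gm15543 kept its call in 13 of 16 alternatives, AC153945.1 in 10 and AV026068 in 8, each with the same sign in 16, and with 1 prior variance the adjusted P values were 0.0920, 0.112 and 0.146. With 1 prior variance the Cpt1b log2 fold change of -2.27 had an adjusted P of 0.0563. The replicate numbers were not taken to pair the mice. After subtraction of the group mean of each gene, same-numbered libraries correlated at 0.38, 0.25 and only 0.07 across genes. The block moved the calls over all genes from 178 to 603, and with it Dleu2 (limma, adjusted P = 0.0384), 4930429F24Rik (0.0183), Gm17281 (0.0165), C130080G10Rik (0.0458), Gm26917 (0.00784) and Neat1 (0.00474) were among the members called. Of these, Dleu2 had become a member only through its mean in Ctrl Cre, so its test is not independent of how it was chosen. With group means subtracted, Ctrl Cre 3 correlated best with Cpt1b cKO 2. The causes of these shifts were not tested.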
